A study of Mus musculus with 4 samples.

Results

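The cardiac transcription factors followed here were Gata4, Gata5, Gata6, Tbx5, Tbx20, Hand1, Hand2, Nkx2-5, Isl1 and Mef2c. The choice was by name, as the core regulators of heart development, and was made with earlier results of these data known. The genes were found by the current or an older gene name on the array, which gave 13 probes for the 10 genes among 55681 probes in all. All 10 were among the 16659 named genes with a probe well above background on at least 1 array. Cardiac mesenchymal progenitors (CMPs) are Sca-1-positive cells taken from the heart of adult C57BL/6 mice, from the atria according to the methods, and grown on collagen I with serum and bFGF. The CMP control was untreated and collected at day 0. OSKM-CMPs had been transduced with Sendai virus encoding Oct4, Sox2, Klf4 and c-Myc and were collected at day 4, day 6 or day 8 in a reprogramming medium without leukemia inhibitory factor. According to the methods, cells were moved to Geltrex-coated plates before transduction. The surface under the control at its collection is not stated there. Total RNA of each of the 4 conditions was labelled with Cy3 and hybridised to 1 Agilent one-colour mouse array.

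With 1 array per condition, no difference had a replicate check and no test was possible. The single control was from day 0. Effects of the virus, of its 4 factors, of the new medium, of any change of culture surface and of time in culture therefore cannot be told apart. Changes are log2 ratios of the processed signal after each array was divided by its 75th percentile, which lay between 388.5 and 410.9 on the 4 arrays. The ± is 1 SD from the scanner software's error model, taken for the mean over a probe's spots and a gene's probes. It is smaller where more spots or probes were averaged, and covers neither cultures nor RNA preparation. A gene is called lower or higher when the change was at least 2-fold. The number of arrays limits the precision of every value.

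Heart muscle genes are switched on by a small set of DNA-binding proteins that act together: GATA zinc fingers, T-box proteins, the basic helix-loop-helix Hand proteins, the homeodomain proteins Nkx2-5 and Isl1, and the MADS-box protein Mef2c. Several of them bind each other, bind neighbouring sites in the same enhancers and keep one another's genes active. Gata4, Tbx5 and Mef2c are also the trio used to convert fibroblasts towards cardiomyocyte-like cells, and many of these genes are already expressed in stromal cells of the adult heart.

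The promoters that RefSeq gives for genes of contrasting response are shown for Tbx20 and Nkx2-5, which fell, for Isl1, which rose, and for Hand2, which stayed near the control. The sequences are from build GRCm38.p6 and run from 250 bases before to 30 bases after the gene's start, in the direction of the gene. Capitals mark matches on either strand to 4 motifs: AGATAA (a form of the letters bound by GATA factors), AGGTGTGA (T-box), CACTTAA (NK2 homeodomain) and CANNTG (E-box, bound by helix-loop-helix proteins). Other forms of these motifs, such as TGATAA for GATA factors, were not searched and are not marked.
Tbx20 promoter, chr9:24774274-24774553, minus strand: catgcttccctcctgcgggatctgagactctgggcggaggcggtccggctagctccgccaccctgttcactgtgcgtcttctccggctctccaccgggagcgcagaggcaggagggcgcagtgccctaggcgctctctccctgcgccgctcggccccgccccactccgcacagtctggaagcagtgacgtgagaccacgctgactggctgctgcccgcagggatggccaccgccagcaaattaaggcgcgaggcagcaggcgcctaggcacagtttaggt
Nkx2-5 promoter, chr17:26841536-26841815, minus strand: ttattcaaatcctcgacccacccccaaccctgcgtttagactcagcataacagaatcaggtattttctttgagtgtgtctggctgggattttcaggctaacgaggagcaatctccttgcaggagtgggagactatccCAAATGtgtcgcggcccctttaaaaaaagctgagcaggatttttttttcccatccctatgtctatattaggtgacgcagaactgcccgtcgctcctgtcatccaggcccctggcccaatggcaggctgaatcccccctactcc
Isl1 promoter, chr13:116309659-116309938, minus strand: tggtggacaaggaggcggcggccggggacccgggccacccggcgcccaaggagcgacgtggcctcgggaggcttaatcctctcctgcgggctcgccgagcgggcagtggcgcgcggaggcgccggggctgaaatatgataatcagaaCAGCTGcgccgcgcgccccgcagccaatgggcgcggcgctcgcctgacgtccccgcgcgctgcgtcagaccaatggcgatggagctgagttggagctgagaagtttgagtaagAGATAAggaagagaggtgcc
Hand2 promoter, chr8:57320733-57321012, plus strand: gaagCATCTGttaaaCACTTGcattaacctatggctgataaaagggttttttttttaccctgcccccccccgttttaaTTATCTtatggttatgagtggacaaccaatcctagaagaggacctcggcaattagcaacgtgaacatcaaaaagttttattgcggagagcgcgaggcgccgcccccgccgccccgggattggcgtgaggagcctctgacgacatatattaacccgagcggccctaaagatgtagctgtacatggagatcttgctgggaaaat
Over the 300-base windows searched, which reach 20 bases further than those printed, the Tbx20 promoter held none of the 4 motifs. The Nkx2-5 promoter held 1 E-box. The Isl1 promoter held 1 E-box and 1 AGATAA, the latter 11 bases into the transcript, and the Hand2 promoter held 1 AGATAA and 2 E-boxes. Among all 32851 promoters in the table, 11.2% held AGATAA, 1.28% AGGTGTGA, 2.41% CACTTAA and 72.3% CANNTG. Tbx20 and Isl1 had GC-rich windows, with 68.33% and 69.0% G and C against a median of 52.67% over all promoters, whereas Nkx2-5 (51.67%) and Hand2 (50.33%) lay near that median. The matches are descriptions of these letters and no measure of binding. Promoters were matched for 6 of the 10 genes. Those of Gata4, Gata6, Tbx5 and Hand1 were not matched.

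The 10 factors split rather than moving together. At day 4, Gata4, Tbx5, Tbx20 and Nkx2-5 were lower than in the CMP control, between 6.54-fold and 34.8-fold. Isl1, Gata6 and the mean of the Hand1 probes were higher, and Gata5, Hand2 and Mef2c changed less than 2-fold. Thus 4 of 10 factors were lower, where 9.57% of all genes were, and 3 of 10 were higher, where 12.1% of all genes were. At day 6 the same counts were 4 lower against 11.4% of all genes and 3 higher against 13.0%. At day 8 the counts were 4 lower against 11.6% and 2 higher against 14.4%, because Gata6 was then below 2-fold. The higher counts rest on changes near 2-fold, and became 1 of 10 at day 4 when arrays were scaled by their median and 1 of 10 at day 8 with normexp and quantile normalization. The members' median change was 0.08, -0.30 and -0.38 on days 4, 6 and 8, beside -0.01, -0.04 and -0.03 for all genes. The 3 days share the control array, so their values are not independent of one another.

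**Figure D1:**
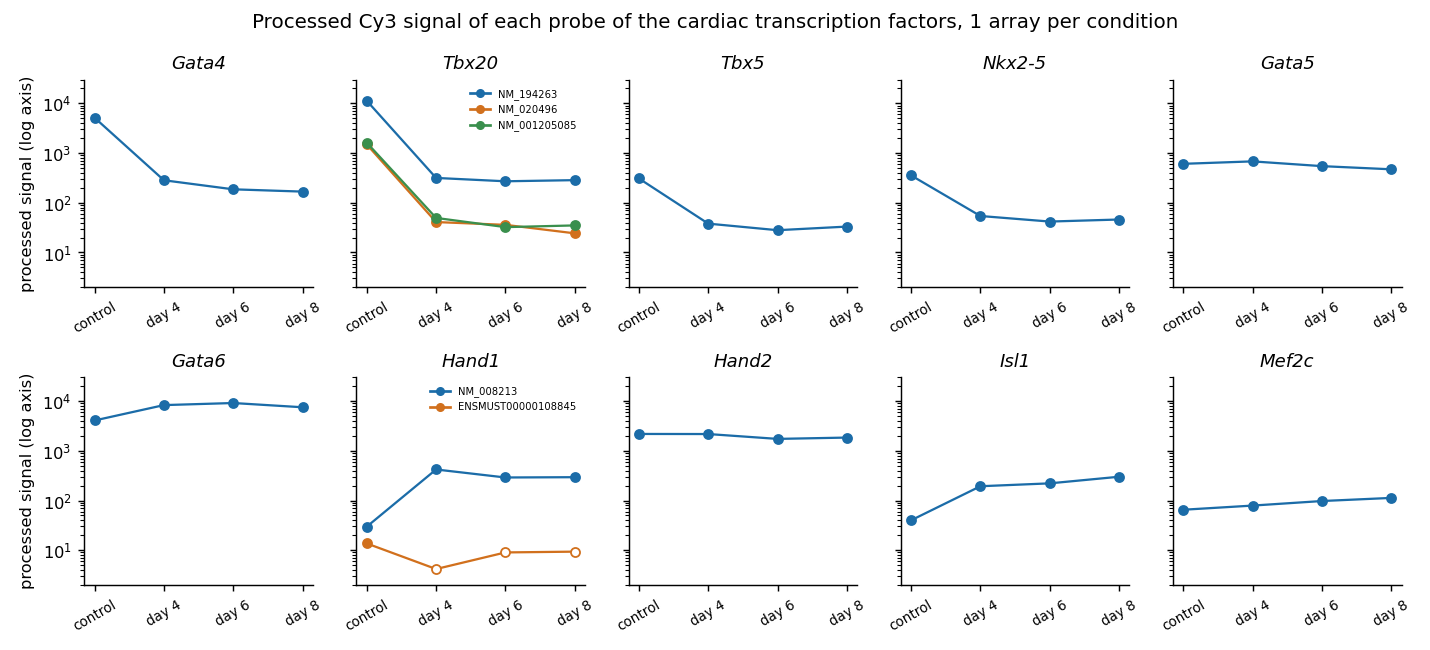
Processed Cy3 signal (log axis) of each of the 13 probes on the 4 arrays, CMP control first, with 1 line per probe and an open circle where the probe was not well above background. Gata4, Tbx5, Nkx2-5 and all 3 Tbx20 probes drop between the control and day 4, Isl1 and 1 Hand1 probe climb, and signals of different probes are not comparable in height.

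Gata4 encodes the zinc finger protein that is required for heart tube formation and is present in adult cardiac fibroblasts as well as in cardiomyocytes. Its probe (NM_008092, chr14:63817858-63817917 in mm9, minus strand) gave a processed signal of 5145 in untreated CMPs, against 284.3, 186.8 and 168.0 in OSKM-CMPs of days 4, 6 and 8. The control stood far above all 3 OSKM-CMP arrays. The changes were -4.17 ± 0.20, -4.85 ± 0.21 and -5.01 ± 0.21, or 18.1-, 28.7- and 32.3-fold lower. Gata4 was lower still at day 8 than at day 4 (-0.84 ± 0.21), with -0.67 ± 0.21 of that between days 4 and 6.

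Gata6, the closest relative of Gata4 in the heart and partly interchangeable with it, moved the other way. Its probe (NM_010258) read 4084 in the control and 8320, 9164 and 7529 at days 4, 6 and 8. All 3 OSKM-CMP arrays were above the control, by 1.03, 1.10 and 0.80 with an error of 0.20 each, which is 2.04-, 2.15- and 1.75-fold. Gata4 and Gata6 thus shifted in opposite directions in the same RNA.

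Gata5, a GATA factor of endocardium and endoderm, read 609.0, 682.0, 547.1 and 472.3 in the same order of arrays (NM_008093, chr2:180059867-180059926, minus strand). The changes of 0.17, -0.22 and -0.44, each ± 0.20, stayed under 2-fold. The probe itself limits this reading, as it carries letters found in many other places. It shares a run of 15 bases with 57 of the 32851 promoters (0.174%) and with 13 probes of other genes, while each of the other 12 probes shares one with 0 to 5 promoters and 0 to 2 probes. The stretch from base 23 to base 52 of the probe is given to show this, with the 15 bases present in 39 promoters in capitals.
Gata5 probe stretch: tgtagctCTGGCTGTCCTGGAActcattat
The 13 probes of other genes that share such a run were all well above background, and changed by -1.17 to 1.61 at day 8, with a median of 0.28. Whether the Gata5 probe read Gata5 alone was not tested.

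Tbx20, a T-box protein that is mainly a repressor and is required for chamber and valve formation, showed the largest fall of the 10 factors. It was read by 3 probes on the minus strand of chromosome 9 that agreed. The probe for NM_194263 (chr9:24527750-24527809) gave 11302 in the control and 316.7, 271.1 and 285.8 at days 4, 6 and 8. That for NM_020496 (chr9:24544715-24544774) gave 1492, then 41.0, 36 and 24.3. That for NM_001205085 (chr9:24563177-24563236) gave 1620, then 49.6, 32.4 and 35.1. On each probe the control was the highest array by a wide margin. The mean of the 3 was lower by 34.8-fold at day 4 (-5.12 ± 0.12), 46.2-fold at day 6 (-5.53 ± 0.13) and 50.9-fold at day 8 (-5.67 ± 0.13). The 3 probes ranged from -5.38 to -6.02 at day 8, a spread that is small against the fall. The third probe has no stop codon in any forward reading frame.
Tbx20 probe, NM_001205085: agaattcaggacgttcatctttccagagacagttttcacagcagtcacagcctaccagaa

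Tbx5, the T-box activator of atrial and left ventricular genes that binds Gata4 and Nkx2-5, fell as well. Its probe (NM_011537, chr5:120334087-120334146, plus strand) read 308.5 in the control and 38.1, 28.1 and 33.2 at days 4, 6 and 8. The control was again the highest, and the 3 later arrays lay close together. Tbx5 was 8.08-, 11.5- and 9.81-fold lower, with changes of -3.02 ± 0.23, -3.52 ± 0.26 and -3.29 ± 0.24. The later signals are dim, but stayed above the weakest signals counted as well above background, which were 8.53 to 10.73 on the 4 arrays.

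Nkx2-5, the homeodomain protein that marks the early cardiac field and partners Gata4 and Tbx5, read 355.6 in the control and 54.2, 41.9 and 46.1 afterwards (NM_008700, chr17:26975621-26975680, minus strand). As for Tbx5, the control was on top and day 6 lowest, but for both genes days 4, 6 and 8 differed from one another by less than 2 errors. The gene was 6.54-, 8.85- and 8.14-fold lower at days 4, 6 and 8 (-2.71 ± 0.22, -3.15 ± 0.23 and -3.03 ± 0.22).

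Isl1, a LIM-homeodomain protein of second heart field progenitors that is normally switched off as cardiomyocytes mature, was higher at each time point. Its probe (NM_021459, chr13:117088774-117088833, minus strand) was printed at 10 spots of each array, so its spot spread can be seen directly. The spots read 35.0 to 45.7 on the control array (median 40.4), 180 to 207 at day 4 (median 194), 203 to 240 at day 6 (median 220) and 284 to 317 at day 8 (median 303). The control did not overlap any later array, days 4 and 6 overlapped, and day 8 lay above both. The 10 spots are technical repeats of 1 hybridisation and not biological replicates. The changes were 2.28, 2.41 and 2.83, each ± 0.07, or 4.85-, 5.30- and 7.13-fold higher. The rise between days 6 and 8, 0.43 ± 0.06, was the only change past 2 errors in that interval among the 10 factors.

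**Figure D2:**
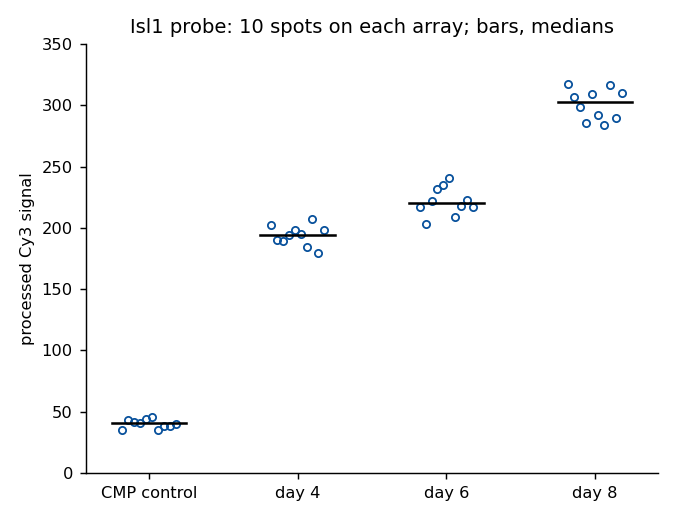
Processed Cy3 signal (linear axis) of the 10 spots of the Isl1 probe on each of the 4 arrays, with a bar at the median. The medians climb from 40.4 in the CMP control to 303 at day 8, and the day 4 and day 6 spots overlap.

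Hand1 and Hand2 are helix-loop-helix proteins of the left ventricle and outflow tract and of the right ventricle. The 2 Hand1 probes disagreed. The RefSeq probe (NM_008213, chr11:57642342-57642401, minus strand) read 29.8 in the control and 420.9, 290.6 and 294.6 at days 4, 6 and 8, with the control lowest. That was 14.2-, 9.35- and 9.37-fold higher (3.82, 3.22 and 3.23, each ± 0.23). The second probe, for the Ensembl transcript ENSMUST00000108845 (chr11:57646257-57646316, minus strand), read 13.7, 4.17, 9.01 and 9.34 and was well above background only in the control. The changes of that probe were -1.71 ± 0.81, -0.66 ± 0.48 and -0.63 ± 0.45. As bounds, it was at least 1.27-fold lower at day 4 and 1.39-fold lower at day 8. These bounds set the control against the weakest signal well above background on that array. At day 6 the dim signal itself was higher than that weakest signal, so its 1.58-fold is a measured ratio and not a bound. The mean of both probes, used in the counts above, was 1.06 ± 0.42, 1.28 ± 0.27 and 1.30 ± 0.25 and describes neither.

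Hand2 stayed near its control level. Its probe (NM_010402, chr8:59803220-59803279, plus strand) read 2186, 2176, 1738 and 1848 in the control and at days 4, 6 and 8. The control and day 4 were nearly equal and the later arrays slightly lower, with changes of -0.0031, -0.39 and -0.32, each ± 0.20.

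Mef2c, the MADS-box activator of muscle genes that is also expressed in endothelium and neural crest, stayed under 2-fold with slightly higher signals. The probe (NM_025282, plus strand) is placed at chr13:83772788-83775025, a span of 2238 bases for 60 bases of probe. Exon positions were not available, so whether the probe reads spliced RNA only was not tested.
Mef2c probe, NM_025282: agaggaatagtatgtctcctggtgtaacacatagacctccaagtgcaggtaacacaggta
It gave 65.2 in untreated CMPs, then 79.0, 97.6 and 112.7, with each array above the one before. The changes were 0.28 ± 0.22, 0.52 ± 0.21 and 0.71 ± 0.21, all under 2-fold. Of the trio Gata4, Tbx5 and Mef2c, the first and second thus fell and the third did not. By qRT-PCR, the paper reports that this trio rose in CMP controls and was not expressed in OSKM-CMPs. On the arrays each of the trio stayed well above background in OSKM-CMPs, though Tbx5 and Mef2c were dim. The reason for the difference was not tested.

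**Figure D3:**
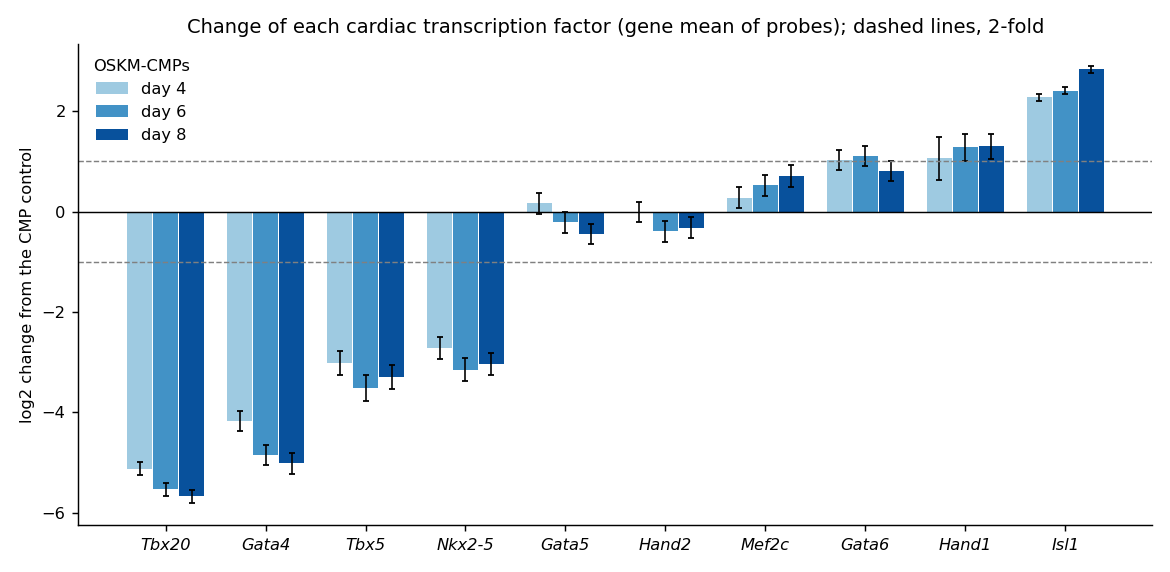
Log2 change of each of the 10 factors from untreated CMPs, with a bar for each of days 4, 6 and 8, as the mean of its probes, ordered by day 8. Error bars are 1 SD of the scanner software's error model and dashed lines mark 2-fold, beyond which Tbx20, Gata4, Tbx5 and Nkx2-5 lie below and Isl1 above on every day, while the Hand1 bars average 2 probes that disagree.

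Most of the movement had taken place by day 4. By the gene means, 7 of 10 factors changed by more than 2 errors between the control and day 4. Only Gata4 and Tbx20 did so between days 4 and 6, and only Isl1 between days 6 and 8. These counts depend on the errors, which are smaller for Tbx20 with 3 probes and Isl1 with 10 spots. The share of all genes past 2 errors was not computed, so the counts have no background to be read against. Between days 4 and 6, Tbx5 (-0.50 ± 0.28) and Nkx2-5 (-0.44 ± 0.24) fell no less than Tbx20 (-0.41 ± 0.14). Of the single Tbx20 probes, only that for NM_001205085 passed 2 errors there (-0.68 ± 0.24). The others were at -0.29 ± 0.21 and -0.25 ± 0.26. The day 4 change was 83.3% of the day 8 change for Gata4, 91.5% for Tbx5, 90.3% for Tbx20, 89.6% for Nkx2-5 and 80.5% for Isl1. Over all genes at least 2-fold changed at day 8, the median of this share was 77.9%. From day 4 to day 8 the members changed by -0.84 (Gata4) to 0.55 (Isl1), so that 0 of 10 were 2-fold lower and 0 of 10 were 2-fold higher, where 4.1% and 4.93% of all genes were. Changes of more than 2 errors over this interval were those of Gata4, Tbx20 (-0.55 ± 0.14), Gata5 (-0.61 ± 0.20), Isl1 and Mef2c (0.43 ± 0.21). The brightest Tbx20 probe, at -0.23 ± 0.20, was within 2 errors, while the dimmer ones were at -0.83 ± 0.29 and -0.58 ± 0.23. With normexp and quantile normalization, Tbx20 changed by -0.26 and Mef2c by 0.20 from day 4 to day 8.

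**Figure D4:**
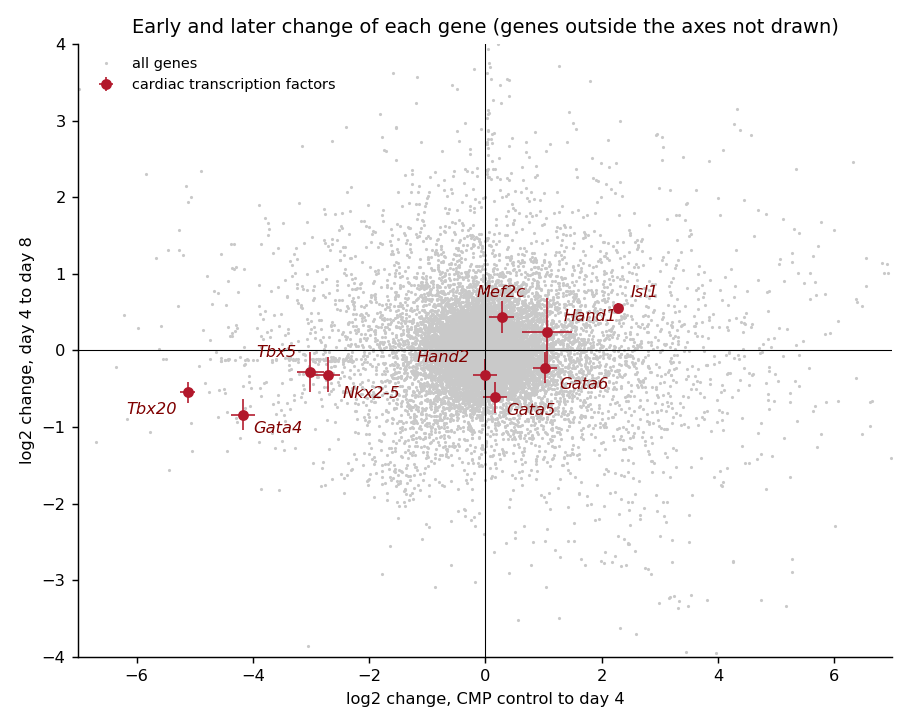
Log2 change from the CMP control to day 4 (x axis) against that from day 4 to day 8 (y axis) for all genes (grey) and the 10 factors (red, with error-model bars of 1 SD). Tbx20, Gata4, Tbx5 and Nkx2-5 lie far left and near the horizontal zero line, and no factor moves 2-fold between days 4 and 8.

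The falls went together with shifts in other cell markers. In bulk RNA, fewer cells of a type and less RNA per cell cannot be told apart. The summed level of the smooth muscle and pericyte list, in units of the array's 75th percentile, was 584 in the control and 54.3, 30.8 and 27.5 at days 4, 6 and 8. Within it Acta2, Tagln and Cnn1 were lower (-5.09 ± 0.06, -4.78 ± 0.20 and -5.24 ± 0.22 at day 8), Rgs5 was higher (2.45 ± 0.20), and Myh11, its defining myosin, stayed at background on all 4 arrays. Of 7 endothelial markers, 7 were well above background in the control and 4, 3 and 3 later, with a summed level from 2.03 down to 1.09. Over all probes, 56.57% were well above background in the control and 59.65% at day 8. At day 8, 5 of the 7 were lower, where 11.6% of all genes were. Kdr, the brightest of them, and Pecam1 stayed near the control (-0.27 ± 0.11 and 0.10 ± 0.16). The part of these cells in the results was not tested.

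The label of the cells was borne out in part. All 8 mesenchymal markers were well above background on every array, with a summed level of 1431, 1248, 1479 and 1689. Ly6a, which encodes Sca-1, was 2.69 ± 0.20 higher at day 8, whereas Tcf21 fell. Of 6 cardiomyocyte markers, Actn2 and Ttn were not well above background on any array and only Tnnt2 was in the control, the array with the highest Gata4, Tbx5, Tbx20 and Nkx2-5 signals. At days 4, 6 and 8, 4, 4 and 3 of the 6 were well above background. Their summed level, almost all of it from Tnnt2, was 11.9 in the control and 4.07 at day 8, and Tnnt2 changed by -1.60 ± 0.20. Myh6 and Tnni3 went the other way at day 8, Myh6 by at least 1.91-fold. The measured ratio of Tnni3, which is not a bound, was 3.28-fold higher (1.71 ± 0.41), with a dim control signal. In the leukocyte list 4, 2, 4 and 4 of 6 markers were well above background, and Laptm5 on no array. The summed level of 6 epicardial markers went from 3.54 to 26.6 at day 8, with Msln, Krt8 and Krt19 higher and Upk3b and Wt1 lower, Wt1 by at least 10.8-fold. All 8 adipocyte markers were higher at day 8, with a summed level from 5.0 to 351, though only 3 were well above background in the control. Among the rest, the bound for Lep was only 1.30-fold, while those for Adipoq, Plin1, Cfd and Cidec ran from 509-fold (Cidec) to 3890-fold (Cfd).

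Partner proteins, which bind these factors or act at the same promoters, moved less. Of 20 measured, 3 were lower and 2 higher at day 8, with a median of 0.24 beside -0.03 for all genes, shares near the 11.6% and 14.4% of all genes. The lower count was 5 with the array median as the scale and 1 with the brightest probe. Hopx, a homeodomain protein that lacks DNA binding and acts through Srf, was higher by 2.01, 2.63 and 2.79 ± 0.15 at days 4, 6 and 8. Nfatc4, a calcineurin-dependent factor, was higher by 1.54, 1.47 and 1.32 ± 0.20. Serum response factor, Srf, reached -1.23 ± 0.14 at day 8. Hdac7, a histone deacetylase that binds Mef2 proteins, reached -1.36 ± 0.20, and Tead1, the DNA-binding partner of Yap, -1.09 ± 0.12. The Gata cofactors Zfpm1 and Zfpm2 stayed under 2-fold at day 8 (0.42 and 0.43, each ± 0.14).

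Family relatives were mixed as well. Of 17 above background on some array, 3 were lower and 4 higher at day 8, with a median of -0.24, where 11.6% of all genes were lower and 14.4% higher. The higher count was 2 with the array median as the scale. Gata1 was at background and was filtered out. Among T-box genes, Tbx18, a factor of epicardium and sinus horn, was at -2.19 ± 0.20 and Tbx4 at -2.07 ± 0.23. Tbx1, well above background in the control alone, was at least 2.93-fold lower. In contrast, Tbx15 (1.62 ± 0.20) and Tbx3, a repressor of the conduction system (1.31 ± 0.20), were higher. Twist2, a helix-loop-helix protein of mesenchyme, was at 1.17 ± 0.20 and Isl2 at 1.17 ± 0.28. Gata2 and Gata3 did not reach 2-fold at day 8 (-0.63 ± 0.21 and -0.24 ± 0.20), nor did Mef2a and Mef2d (0.77 ± 0.12 and -0.46 ± 0.12).

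Of the other heart and mesoderm factors, 6 of 17 were lower and 6 higher at day 8, with a median of 0.30, where 11.6% of all genes were lower and 14.4% higher. Mesp1 was at background and was filtered out. Tcf21, a helix-loop-helix factor of epicardium and cardiac fibroblasts, was at -4.55, -4.80 and -4.65 ± 0.21 at days 4, 6 and 8. The 3 Hey genes, repressors induced by Notch that oppose Gata4 at heart promoters, were lower too, with Heyl at -4.46 ± 0.21, Hey1 at -4.20 ± 0.21 and Hey2 at -3.53 ± 0.34 at day 8. The Iroquois homeodomain genes Irx3 and Irx5, known for the conduction system and for fat tissue, were higher by 3.19 ± 0.23 and 3.41 ± 0.26. Foxf1, a forkhead factor of lateral mesoderm, was at 1.54 ± 0.21.

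**Figure D5:**
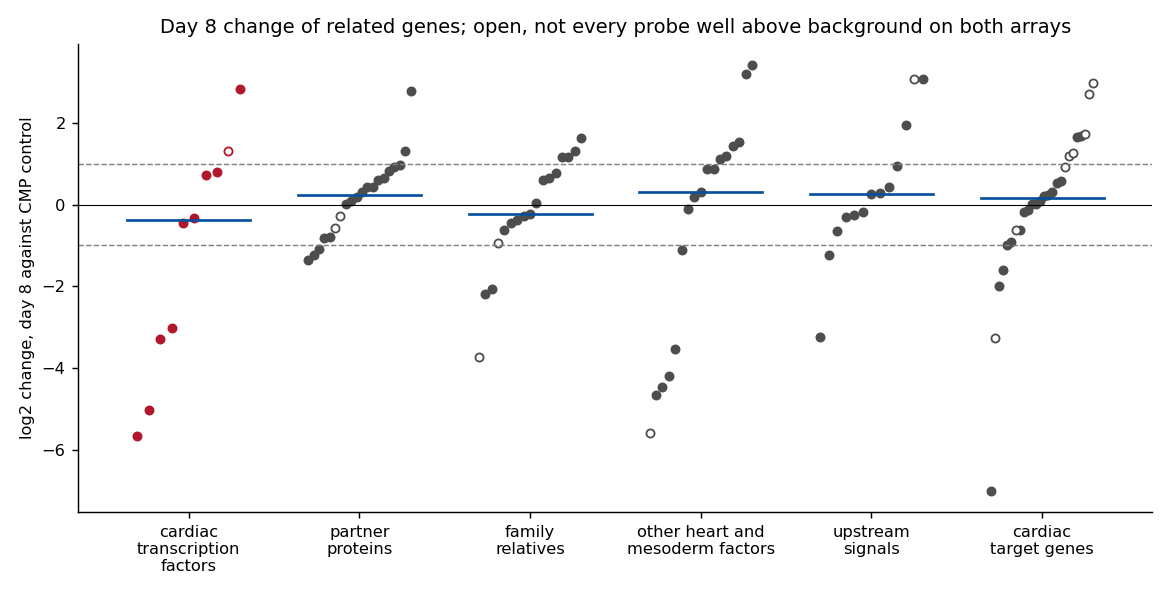
Log2 change at day 8 from the CMP control for the 10 cardiac transcription factors (red) and 5 lists of related genes (grey), 1 point per gene, with the list median as a blue bar. Open circles are genes for which not every probe was well above background on both arrays, dashed lines mark 2-fold, and the medians lie between -0.38 and 0.30 while single genes reach -7.0 and 3.41.

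Upstream signals, the ligands, receptors and Smads that induce cardiac factors, had 2 of 13 lower and 3 higher at day 8, with a median of 0.25, where 11.6% of all genes were lower and 14.4% higher. Bmp5 was at background and was filtered out. Bmp7, 1 of the 3, was not well above background in the control and was at least 1.82-fold higher. With dim values raised to the floor the higher count was 2, and with normexp and quantile normalization 1 was lower. The bone morphogenetic proteins, inducers of Nkx2-5 and Gata4 in the embryo, were split. Bmp4 was lower, at -3.04, -3.43 and -3.24 ± 0.20, and Bmp2 was higher by 3.23, 2.58 and 1.95 ± 0.21. Wnt11, a non-canonical Wnt ligand, was at -1.23 ± 0.23 at day 8. Fgf10, the second heart field ligand that Isl1 activates in the embryo, was higher by 2.41, 3.59 and 3.07 ± 0.07.

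Genes that these factors drive in heart muscle were mixed, and many were dim. Of 32 listed, 26 passed the filter, with Actc1, Ttn, Pln, Casq2, Csrp3 and Corin not well above background on any array. At day 8, 4 were lower and 7 higher, with a median of 0.15, where 11.6% of all genes were lower and 14.4% higher. Of the 7, Myh6, Tnni3, Myl7, Ckm and Mb were not well above background in the control, and Ckm was not at day 8 either. The bounds were at least 1.91-fold higher for Myh6, 2.94-fold for Myl7 and 1.42-fold for Mb, while the 3.28-fold of Tnni3 was a measured ratio. The higher count was 4 with dim values raised to the floor, 2 with probes well above background on all 4 arrays, 5 with the array median as the scale and 0 with normexp and quantile normalization. The median was -0.12 with the array median as the scale and -0.10 with quantile normalization. Ankrd1, a stretch-responsive partner of titin, fell furthest, at -5.44, -6.38 and -7.0 ± 0.20. The sarcomere genes Mybpc3 and Tnnt2 were at -1.99 ± 0.28 and -1.60 ± 0.20, while Myl2, the ventricular myosin light chain, was at 1.65 ± 0.27. Of the natriuretic peptide genes, both classic Gata4 targets, Nppb was at 1.67 ± 0.24 and Nppa at 0.10 ± 0.10.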

How the data were processed

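RNA of 4 samples, 1 per condition, was read on Agilent one-colour mouse arrays of 62976 spots. The authors deposited scanner tables of spot intensity made with Feature Extraction (10.7.3.1 per the file headers, 9.5.3 in the submitters' processing notes) and a normalized log2 table. In the deposited log2 table each array equals the log2 processed intensity less 1 constant (8.60, 8.60, 8.66 and 8.68), with column medians of -4.22, -4.08, -4.09 and -3.96. It is uncentred by gene and keeps the scanner's direction. Deposited positions are on mm9.

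Control spots (3671) and 87 to 106 outlier spots per array were left out, spots of a probe were averaged, and log2 processed intensity was taken relative to each array's 75th percentile. Of 55681 probes, the 35547 that rose well above background anywhere were kept, with 56.57% to 59.65% well above background per array and 0 saturated. A gene is the mean of its kept probes. Probes were named through RefSeq by accession (26762), symbol (3819) or synonym (639), and 24461 were not named. Changes of at least 2-fold were counted, without tests. The scripts, in Python 3.11.15 with pandas 2.3.3, numpy 2.4.6 and matplotlib 3.10.9, and R 4.3.3 with limma 3.58.1 for normexp (offset 50), were tested on simulated data.

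Members and lists were chosen with earlier results of these data known. Open to naming were all members with their probes; from each related list up to 4 genes with the largest fall and 4 with the largest rise at day 8, past 2-fold, well above background on both arrays with all kept probes and alike in direction on every day; markers; the 3 genes nearest to each member in pattern; and neighbours within 20000 bases. Some of these genes are not reported here. Hand1, with a probe not well above background on every array, had no pattern search. Tbx1, Zfpm1, Zfpm2, Gata1, Gata2, Gata3, Mef2a, Mef2d, Mesp1, Bmp5, Bmp7, Nppa, Myl7, Ckm, Mb and the cardiac targets at background were named after their values were seen. Alternatives were the array median as the scale, quantile normalization, normexp with quantile normalization, the deposited log2 values, no filter on dim probes, probes well above background on all 4 arrays, dim values raised to a floor, the brightest probe of a gene, other gene names and another measure of likeness.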

Additional observations from a re-analysis of the deposited data

How the results depend on the processing

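No paired analysis was possible because a condition is read by 1 array only. The 4 factors that fell stayed at least 2-fold lower, and Isl1 at least 2-fold higher, on days 4, 6 and 8 under every alternative computed for them. Several of these settings could not change the result. Gata4, Tbx5, Nkx2-5 and Isl1 are each read by 1 probe well above background on every array, so the filter, floor and brightest-probe settings return the same values. The deposited values differ from those used here only by a constant per array. For these genes the check rests on median scaling, quantile normalization and normexp. At day 8 the settings gave -5.28 to -4.48 for Gata4, -3.56 to -1.97 for Tbx5, -5.94 to -4.44 for Tbx20, -3.29 to -2.03 for Nkx2-5 and 1.71 to 2.83 for Isl1. The nearer changes ran from 0.54 to 0.99 for Gata6, 0.35 to 0.71 for Mef2c, -0.71 to -0.41 for Gata5 and -0.59 to -0.20 for Hand2. Hand1 ran from 0.90 to 3.23, the upper value from its RefSeq probe alone, an alternative chosen after seeing the data that equals the setting with probes above background on all arrays. Scaling by the array median moved the median of all genes at day 8 from -0.03 to -0.30. It left 1 factor at least 2-fold higher at day 4, put the factors' median at day 8 at -0.65, and turned the median of the partner proteins to -0.0241 and that of the upstream signals to -0.0145. Normexp with quantile normalization left 1 factor at least 2-fold higher at day 8. Without a filter on dim probes the upstream signals' median was -0.0129 (their probes then include dim ones), and with the brightest probe that of the family relatives was 0.0342. The cause of these moves was not tested. Of the 27 genes nearest in pattern to a factor, 3 were also among the first 3 by Pearson correlation. Dim signals limit Tbx5, Nkx2-5, Mef2c, the control value of Isl1, the dimmer Tbx20 probes and both Hand1 probes. The lowest day 8 values of Isl1 (1.71) and Mef2c (0.35) came from normexp with quantile normalization.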

Other observations

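The genes nearest in pattern to each factor were found over the 3 changes from the control, by Euclidean distance on the log2 scale. The measure rests on 4 arrays and says nothing of shared function. Nearest to Gata4 were Nr1h4, the bile acid receptor (distance 0.15), Tagln, a smooth muscle actin-binding protein (0.31), and the channel gene Trpm6 (0.31). Nearest to Tbx5 was Bmp4 (0.10), with changes of -3.04, -3.43 and -3.24, followed by Sulf1, which edits heparan sulfate (0.17), and the metalloproteinase Mmp17 (0.18). Nkx2-5 had Lhfpl2 (0.12), the TNF receptor family gene Cd40 (0.16) and Anxa3 (0.16). Tbx20, the factor with the largest fall, had no gene closer than Fxyd6 (0.65), then Ccn5 (0.67) and Ptprb (0.74). Isl1 was accompanied by the transglutaminase gene Tgm2 (0.11) and by Ly6c1 (0.11), a relative of the gene for Sca-1. Gata6 had Slc27a3 (0.06), Sbk1 (0.07) and Clcn2 (0.09). For the factors under 2-fold, near ones were Rhebl1 and Aars2 to Gata5, Papss1, Rps3a3 and Osgin1 to Hand2, and Nrip1, Zfp994 and Gm14393 to Mef2c.

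Probes of other genes within 20000 bases of a factor's probe were read where they were above background. On the strand opposite Hand2, 10707 bases away, the unnamed transcript TC1727594 was 0.82 ± 0.21 higher at day 8, and AV026068, 17270 bases away, was 0.11 ± 0.20 higher, while Hand2 itself was at -0.32 ± 0.20. Neil2, 16517 bases from the Gata4 probe, changed by -0.11 ± 0.22 at day 8, against -5.01 for Gata4. Near Hand1, Sap30l changed by -0.79 ± 0.20 and TC1610347 by 0.64 ± 0.26. The long noncoding Gata5os stayed at background on all 4 arrays, as did Hdnr and BB029192 near Hand2. AY512938, 3004 bases from the Mef2c probe, changed by 0.28 ± 0.36.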
